A study of Mus musculus with 4 samples.

Results

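Malate dehydrogenases, aspartate aminotransferases and the enzymes and carrier that bring glutamine into metabolism were followed in mouse pancreatic islet cells given MOTS-c, a peptide encoded in the mitochondrial genome, or a scrambled peptide. The 9 genes were chosen by name from these pathways, with earlier results of these data known. They are Mdh1, Mdh2 and Mdh1b (malate dehydrogenases), Got1 and Got2 (aspartate aminotransferases), Slc1a5 (a glutamine carrier), Gls2 (glutaminase), Glud1 (glutamate dehydrogenase) and Glul (glutamine synthetase). Every gene probe annotated with a RefSeq transcript of these genes was used, which gave 15 probes out of 32994 probes that a RefSeq accession ties to 22911 genes on the array. All 15 were well above their local background on all 4 arrays.

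Islet cells came from 4 littermate C57BL/6 mice, labeled male and 60 weeks old, and were exposed in culture to 10 μM of either peptide for 24 h. RNA of each preparation was hybridized to a one-color Agilent array, which gave 2 arrays for the scrambled peptide, numbered 1 and 2 in the labels, and 2 for MOTS-c, numbered 2 and 3. No treatment other than the peptide is given in the labels, and the groups share strain, age and culture. Between 61.6% and 65.0% of the 59305 gene spots were well above background on each array, and 0 were saturated. Of 7 beta cell markers, 5 were well above background on all 4 arrays, including Ins1, Ins2 and Iapp, while Slc2a2 was so on 3 arrays and Ucn3 on 0. The labels give the animals as male, yet none of the 4 arrays had a signal well above background for any of 7 probes of Y-linked genes (Uty, Kdm5d, Ddx3y and Eif2s3y), and each had a signal for Xist, which coats the inactive X, at 23.7 to 33.5 times local background. The labels and these signals thus disagree in both groups alike.

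The malate-aspartate shuttle carries the electrons of cytosolic NADH into mitochondria. In the cytosol Mdh1 reduces oxaloacetate to malate, malate enters the mitochondrion, Mdh2 turns it back into oxaloacetate, and Got2 and Got1 pass the carbon back out as aspartate. Beta cells, which make little lactate, rely on such shuttles to link glycolysis to respiration and insulin secretion. Glutamine feeds the same pool of glutamate. It enters through carriers such as Slc1a5 and is split by glutaminase, and glutamate is then deaminated to 2-oxoglutarate by Glud1 or joined to ammonia again by Glul. The arrays address whether MOTS-c alters the expression of these genes in aged islet cells.

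Values below are log2 signals after quantile normalization, and a difference is MOTS-c minus scrambled on that scale, with its standard error and 95% interval from limma, a linear model whose spread for each probe is moderated by all 35087 probes tested. Mdh1b was the member with the largest difference, and it was lower with MOTS-c. Slc1a5 was the member highest above its scrambled level. The cytosolic and mitochondrial enzymes that turn the shuttle, Mdh1, Mdh2, Got1 and Got2, differed by at most 0.24 between treatments. No member passed the adjustment over all probes. At an adjusted p under 0.05 by limma, 0 of 15 member probes and 0 of all probes were called (0%), with 0.474 the smallest adjusted p on the array and 0.494 the smallest among the members. At an unadjusted p under 0.05, limma gave 2 of 15 member probes, 1 higher and 1 lower (13.3%), against 7.85% of all probes (2755). Without Mdh1b it gave 1 of 14 (7.14%). The t-test named in the study's methods gave 3 member probes and 2312 probes in all at an unadjusted p under 0.05. These 3 were A_51_P169087 of Gls2, A_51_P376258 of Glud1 and A_51_P218179 of Mdh1. None of them was among the 2 given by limma, the probes of Mdh1b and Slc1a5, so the members called changed with the test. After adjustment the t-test called 1 probe on the whole array, which was no member. The difference reached 1.5-fold in 1 of 15 member probes (6.67%) and in 5.24% of all probes. That 1 was the probe of Mdh1b, and 0 of the 14 others reached it.

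**Figure D1:**
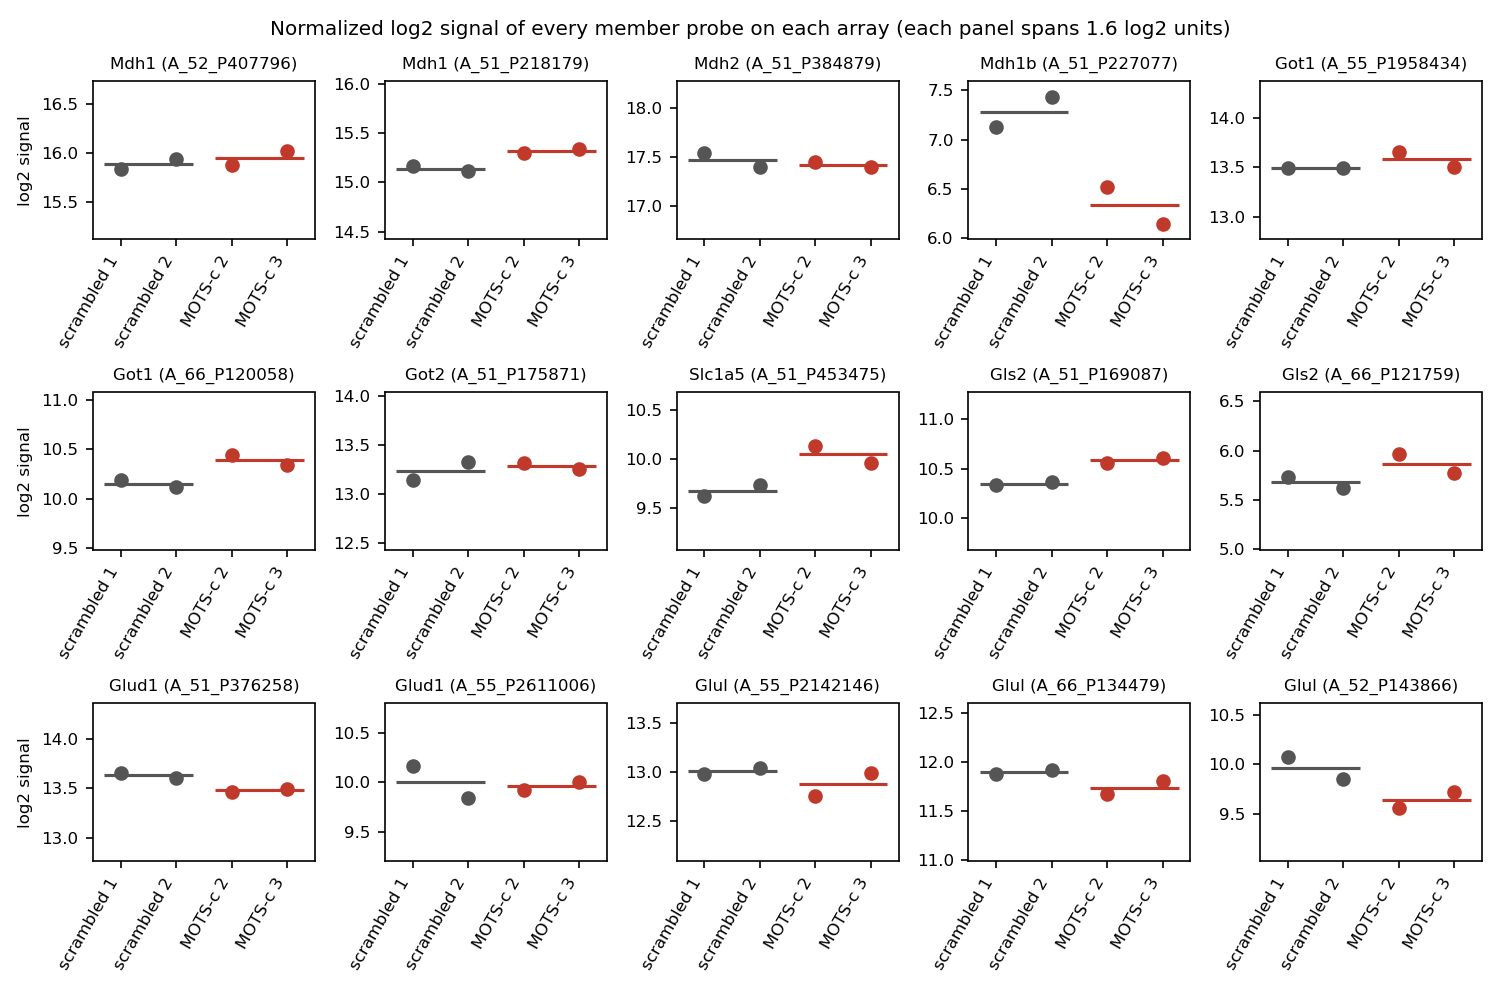
Normalized log2 signal (vertical axis) of the 15 member probes on the 2 scrambled arrays (gray) and the 2 MOTS-c arrays (red), with the group mean as a line and every panel spanning 1.6 log2 units. Mdh1b is the panel with the widest gap between the groups, from 7.13 and 7.44 down to 6.52 and 6.14.

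Among the malate dehydrogenases, the cytosolic enzyme Mdh1 was measured by a pair of probes for the same transcript. The brighter probe (A_52_P407796) read 15.84 and 15.94 with the scrambled peptide and 15.88 and 16.02 with MOTS-c. The treatments overlapped, and the difference of 0.06 (standard error 0.13) was smaller than its error. The other probe of Mdh1 (A_51_P218179) read 15.16 and 15.12 with the scrambled peptide against 15.30 and 15.34 with MOTS-c. Here the MOTS-c signals exceeded the scrambled ones without overlap, with a difference of 0.18 (standard error 0.12, adjusted p = 0.771 by limma). When the arrays were aligned by a shift to a common 75th percentile in place of the quantile step, the brighter probe of Mdh1 stood at -0.010, so its direction was not settled.

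Mdh2, the mitochondrial malate dehydrogenase, which also serves the citric acid cycle, had log2 signals of 17.54 and 17.39 with the scrambled peptide and 17.44 and 17.40 with MOTS-c. Both MOTS-c values lay between those of the scrambled arrays. The difference was -0.05 with a 95% interval from -0.38 to 0.29, that is, from 0.768 to 1.22 of the scrambled level. This probe is among the bright ones, whose values the quantile step can hold close together. With the shift to a common 75th percentile in its place, the difference of Mdh2 was -0.11.

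Mdh1b is a further gene of the malate dehydrogenase family, less studied than the other 2. Its only probe (A_51_P227077) read 7.13 on scrambled replicate 1, 7.44 on scrambled replicate 2, 6.52 on MOTS-c replicate 2 and 6.14 on MOTS-c replicate 3. Both MOTS-c arrays were lower than either scrambled array, and the gap between the groups was wider than the spread within either, 0.31 for the scrambled and 0.37 for the MOTS-c arrays. The difference was -0.95 (standard error 0.20, adjusted p = 0.494 by limma), which is 1.93-fold lower, with a 95% interval from -1.47 to -0.43. The unadjusted p was 0.00592, and 1.28% of all probes tested had a larger absolute difference. The interval of Mdh1b did not meet those of Mdh1 and Mdh2, the lowest of which began at -0.38. These intervals are unadjusted, and the genes were not tested against each other. The Mdh1b probe was dim. Its raw signal was 4.52 and 6.26 times the local background with the scrambled peptide but 3.00 and 2.71 times with MOTS-c, and under the normexp background correction, which here used median signals and added an offset of 50 to every spot, the difference was -0.67. Leaving out single arrays moved it between -1.14 and -0.76. By the methods' t-test its unadjusted p was 0.0596.

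Markers of beta cells and of other cell types were read from the same arrays, since RNA of a mixed preparation cannot tell fewer cells of a type from less RNA per cell. Of 8 acinar markers, 4 were well above background on all arrays, Cpa1 on 1 array, and Pnlip, Prss2 and Rbpjl on 0. The summed signal of the 4 was 4489 and 4992 with the scrambled peptide and 3103 and 2404 with MOTS-c, so that it was lower with MOTS-c without overlap, as Mdh1b was. Of 6 mesenchymal markers only Pdgfra was well above background, and it was lower too, with a difference of -1.05 (standard error 0.33, adjusted p = 0.567 by limma). Col1a1, Col3a1, Dcn, Lum and Pdgfrb were above it on 0 arrays. The signals of the ductal (154 to 255), endothelial (1576 to 2060) and immune markers (3052 to 4750), summed over the genes tested, overlapped between the groups. Of the beta cell markers, Slc2a2, the glucose transporter GLUT2, was lower with MOTS-c, at 5.23 and 5.26 against 3.81 and 4.02. Its difference of -1.33 (standard error 0.14) had an adjusted p of 0.474 by limma, equal to the smallest on the array, and its probe was dim. Mafa differed by 0.16, Nkx6-1 by 0.12 and Iapp by 0.07. Ins1 (-0.04) and Ins2 (-0.05) are among the brightest probes, whose values the quantile step nearly fixes. Ins2 had the same value, 18.54, on 3 of the 4 arrays. The insulin signals therefore say little about beta cell content. The part of any of these cells in the member results was not tested.

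The aminotransferases exchange aspartate and oxaloacetate for glutamate and 2-oxoglutarate. Got1, the cytosolic enzyme, had a pair of probes. The brighter (A_55_P1958434) read 13.49 on each scrambled array against 13.66 and 13.51 with MOTS-c. The scrambled arrays were nearly identical, and the difference was 0.09 (standard error 0.13). It rested mostly on MOTS-c replicate 2, without which it was 0.014. The second probe of Got1 (A_66_P120058) gave 10.19 and 10.11 with the scrambled peptide and 10.44 and 10.34 with MOTS-c. Its difference was 0.24 (standard error 0.12, adjusted p = 0.717 by limma), again with no overlap between the treatments. Got2, the mitochondrial enzyme, read 13.14 and 13.33 with the scrambled peptide and 13.32 and 13.26 with MOTS-c. The MOTS-c values lay between the scrambled ones, and the difference was 0.05 with a 95% interval from -0.30 to 0.41.

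**Figure D2:**
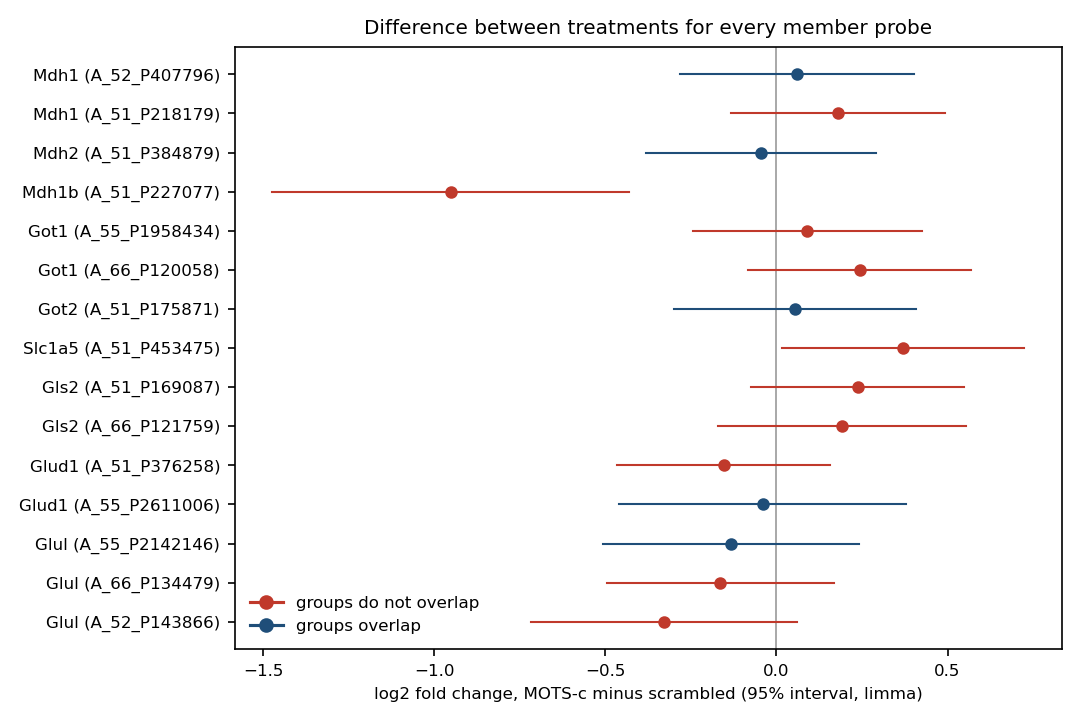
Difference in log2 signal between MOTS-c and scrambled (horizontal axis) for the 15 member probes, with the 95% interval of limma; red marks probes whose 2 MOTS-c arrays both lie on one side of the 2 scrambled arrays. The intervals of Mdh1b (-1.47 to -0.43) and Slc1a5 (0.02 to 0.72) leave out 0 before any adjustment, and the other 13 include it.

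Slc1a5, also called ASCT2, exchanges glutamine for other neutral amino acids across the plasma membrane. Its probe (A_51_P453475) read 9.62 on scrambled replicate 1, 9.73 on scrambled replicate 2, 10.13 on MOTS-c replicate 2 and 9.96 on MOTS-c replicate 3. Both MOTS-c arrays were higher than either scrambled array. The difference was 0.37 (standard error 0.13, adjusted p = 0.615 by limma), or 1.29-fold, and its 95% interval reached from 0.02 to 0.72. The unadjusted p was 0.0435, and 14.8% of all probes tested differed by more. The unadjusted p was above 0.05 whichever array was left out, between 0.0508 and 0.186, with differences from 0.29 to 0.45, and it was 0.0667 by the methods' t-test. Only 1 probe stood for the gene, so the mitochondrial variant of the carrier was not told apart from the form of the plasma membrane.

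Gls2, the glutaminase known from liver, was measured by probes annotated with different transcripts, 2 of the 3 curated ones in RefSeq. The brighter probe (A_51_P169087) gave 10.34 and 10.36 with the scrambled peptide and 10.56 and 10.61 with MOTS-c. Replicates differed little within either treatment, and MOTS-c gave the higher pair. The difference was 0.24 with a standard error of 0.12 (adjusted p = 0.711 by limma). The other probe of Gls2 (A_66_P121759) read 5.73 and 5.62 with the scrambled peptide against 5.96 and 5.77 with MOTS-c. It was also higher with MOTS-c without overlap, by 0.19 (standard error 0.14), but was dim, at 2.37 to 2.73 times background, and stood at 0.06 after the normexp correction.

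Glud1, the mitochondrial enzyme that oxidizes glutamate, and whose activation is known to promote insulin secretion, was lower by a small margin in its brighter probe (A_51_P376258). The log2 signal was 13.66 and 13.61 with the scrambled peptide and 13.47 and 13.49 with MOTS-c, a difference of -0.15 (standard error 0.12, adjusted p = 0.804 by limma) with no overlap. The second probe of Glud1 (A_55_P2611006) read 10.16 and 9.84 with the scrambled peptide and 9.92 and 10.00 with MOTS-c. Both MOTS-c values lay inside the scrambled range, and its difference of -0.04 was a fraction of its standard error of 0.16.

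Glul makes glutamine from glutamate and ammonia. Its 3 probes, which share 1 transcript, were all lower on average with MOTS-c. The brightest (A_55_P2142146) read 12.98 and 13.04 against 12.76 and 13.00, with overlap and a difference of -0.13 (standard error 0.14). The next (A_66_P134479) gave 11.88 and 11.92 with the scrambled peptide against 11.67 and 11.80, a difference of -0.16 (standard error 0.13). The dimmest (A_52_P143866) had the widest gap, 10.08 and 9.85 against 9.56 and 9.72, a difference of -0.33 with a standard error of 0.15 (adjusted p = 0.691 by limma). The treatments did not overlap for the second and the third of these probes. On all 3 probes MOTS-c replicate 2 was the lowest array, and without it the difference of the brightest was -0.014.

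The members can be set against the whole array. Their median difference was 0.05 and their median absolute difference 0.16, where all probes tested had 0.01 and 0.14. The groups did not overlap for 10 of 15 member probes, 6 higher and 4 lower (66.7%), and for 5 of the 9 genes when each was read through its brightest probe (55.6%), while 38% of all probes showed no overlap. Probes of the same gene are not independent readings, and in each of the 5 genes with several probes these shared a direction. The 95% intervals of the 14 probes other than that of Mdh1b all lay between -0.72 and 0.72, so that a change below 0.608 or above 1.65 of the scrambled level fell outside each of them. Arrays within a group differed by a median of 0.10 over the member probes for the scrambled peptide and 0.13 for MOTS-c, and over all probes by 0.16 and 0.19.

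**Figure D3:**
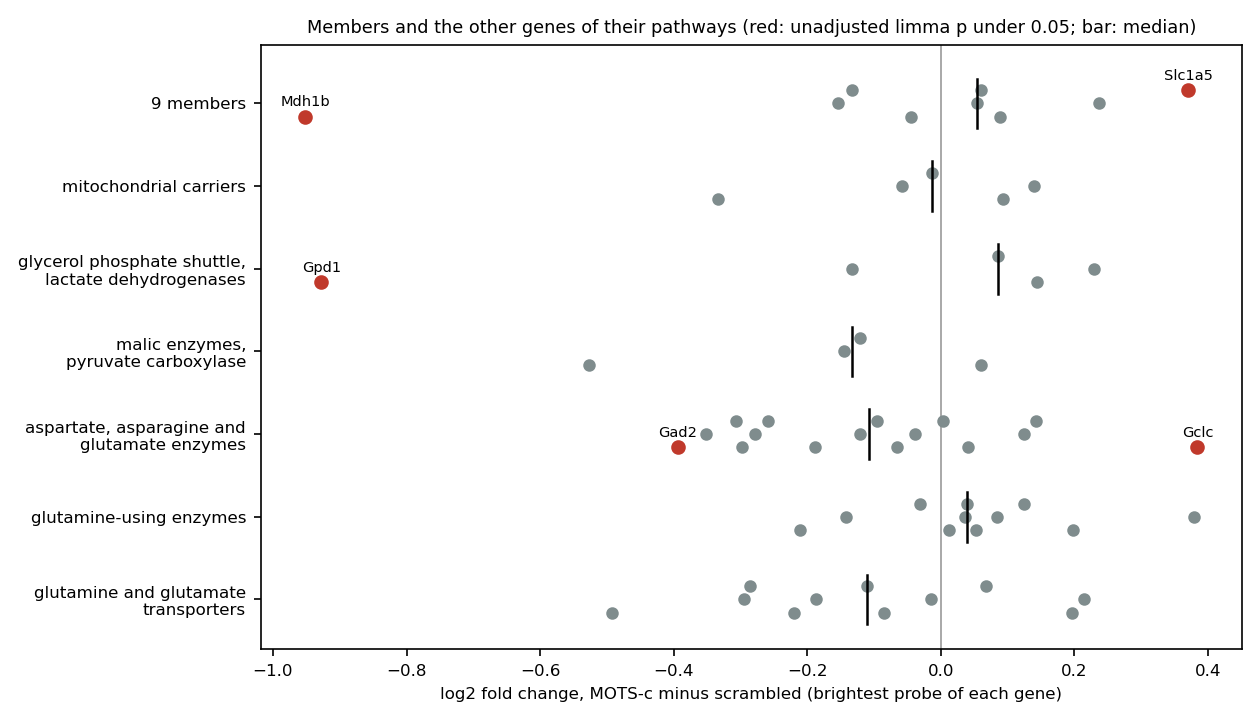
Difference in log2 signal between MOTS-c and scrambled (horizontal axis) of the 9 members and of 52 other genes in 6 lists, each through its brightest probe, with the list median as a bar and red for an unadjusted limma p under 0.05. Mdh1b (-0.95) and Gpd1 (-0.93) stand apart on the left, and the list medians lie between -0.13 and 0.09.

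The genes around these enzymes were read from 6 lists of 57 genes, each through its brightest probe. Of these, 52 were measured, and 3 had an unadjusted p under 0.05 by limma, 1 higher and 2 lower (5.77%, against the 7.85% of all probes), and 0 an adjusted p under 0.05. Among the mitochondrial carriers of malate, aspartate and glutamate, 5 of 6 were measured and 0 had an unadjusted p under 0.05. Slc25a13, the aspartate-glutamate carrier citrin, differed by -0.33 (standard error 0.18) and Slc25a10, the dicarboxylate carrier, by 0.14 (standard error 0.12). The probe of Slc25a13 was dim, at 2.51 to 2.97 times background. Slc25a12, the other aspartate-glutamate carrier, and Slc25a11, which exchanges malate for 2-oxoglutarate and completes the shuttle, were at -0.01 and -0.06.

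The glycerol phosphate shuttle is the other route by which beta cells move electrons of cytosolic NADH to the respiratory chain. Gpd1, its cytosolic enzyme, was the list gene with the largest difference. Its brighter probe (A_52_P16419) read 13.29 and 13.30 with the scrambled peptide and 12.62 and 12.11 with MOTS-c, a difference of -0.93 (standard error 0.20, adjusted p = 0.505 by limma) or 1.90-fold lower. A second probe of Gpd1 (A_66_P137409) gave 7.32 and 7.46 against 6.87 and 6.11, a difference of -0.90 (standard error 0.28). Both probes separated the groups, and on both MOTS-c replicate 3 was the lowest array. Gpd2, the mitochondrial partner, differed by 0.14 (standard error 0.18), and the other 3 genes of this list lay between -0.13 and 0.23.

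Malic enzymes and pyruvate carboxylase, which exchange malate and oxaloacetate with pyruvate, had a median difference of -0.13 over 4 genes, 0 of them with an unadjusted p under 0.05. Me3, a mitochondrial malic enzyme, differed by -0.53 (standard error 0.37) with overlap. Its MOTS-c replicate 3 was at 9.03, and the other arrays lay between 9.87 and 10.25. Me1, the cytosolic form, was at -0.15 (standard error 0.12).

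Among 19 other genes that make or use aspartate, asparagine or glutamate, 16 were measured and 2 had an unadjusted p under 0.05, where 7.85% of all probes did. Gad2, which makes GABA from glutamate in beta cells, was lower with MOTS-c, at 10.77 and 10.61 against 10.38 and 10.22, a difference of -0.39 (standard error 0.14, adjusted p = 0.604 by limma). Gclc, the catalytic subunit that joins glutamate to cysteine for glutathione, was higher, at 11.09 and 11.21 against 11.57 and 11.50, a difference of 0.38 with a standard error of 0.13 (adjusted p = 0.574 by limma). The groups did not overlap for 13 of these 16 genes (81.2%, against 38% of all probes), 3 higher and 10 lower, and the list median was -0.11. This was the highest share of the 6 lists. The other 5 had 36.4% to 50%, and all lists together 53.8% (28 of 52 genes). Gad1 and Got1l1 were well above background on 0 arrays.

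Of 11 other enzymes that use glutamine, all were measured and 0 had an unadjusted p under 0.05, with a median of 0.04. Gfpt2, of the hexosamine pathway, differed by 0.38 with a standard error of 0.15 (adjusted p = 0.640 by limma), and Ctps2, a CTP synthase, by -0.21 with a standard error of 0.15. The probe of Gfpt2 was dim, at 2.39 to 3.26 times background. Of 12 plasma membrane carriers of glutamine, glutamate and partner amino acids, 11 were measured and 0 had an unadjusted p under 0.05, with a median of -0.11. Slc7a8, an exchanger of neutral amino acids, differed by -0.49 with a standard error of 0.21 (adjusted p = 0.681 by limma), and Slc38a5, a glutamine carrier, by -0.29 (standard error 0.18). A dimmer probe of Slc7a8 (A_55_P2883452) differed by only -0.11 (standard error 0.22), with overlap. In this list 3 genes were higher on average with MOTS-c and 8 lower, where 18570 of all 35087 probes were higher and 16517 lower. The groups did not overlap for 5 of the 11 (45.5%, against 38% of all probes).

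**Figure D4:**
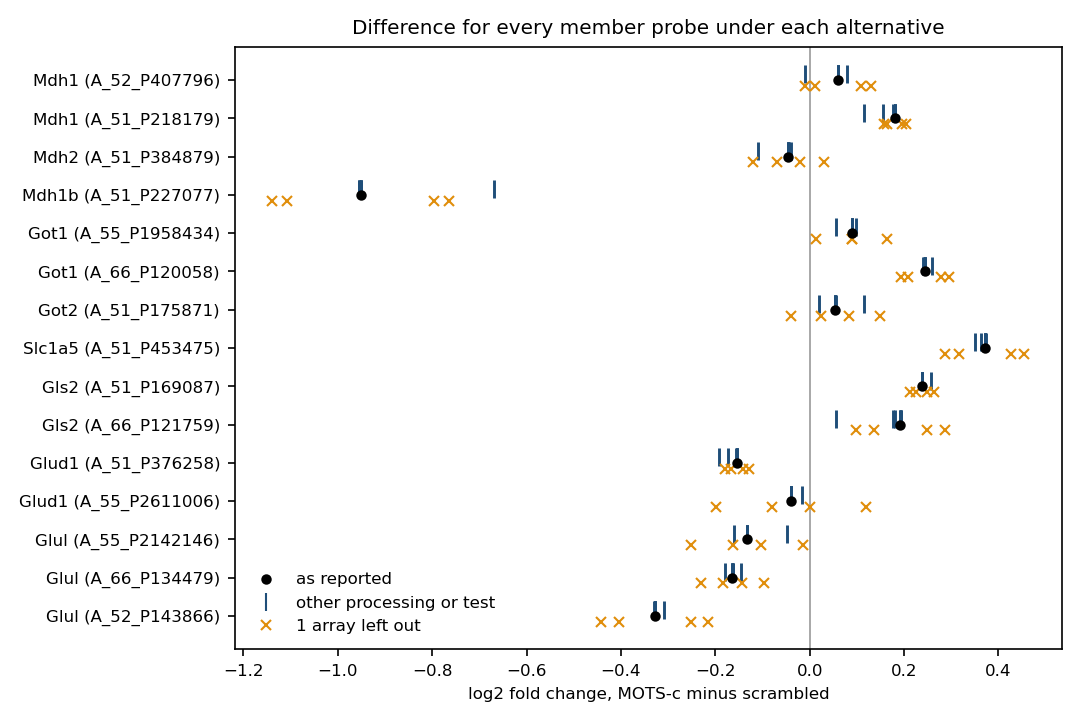
Difference in log2 signal between MOTS-c and scrambled (horizontal axis) of the 15 member probes as reported (black), under other processing or tests (blue bars) and with 1 array left out (orange crosses). Mdh1b stays between -1.14 and -0.67 and Slc1a5 between 0.29 and 0.45, while Mdh2, Got2, the brighter probe of Mdh1 and the second probe of Glud1 have values on both sides of 0.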

How the data were processed

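The authors labeled 100 ng of RNA per sample with Cy3 and extracted the arrays with Feature Extraction (11.0.1.1), and the intensity they deposited for each spot has its local background removed but no normalization across arrays. A deposited table of the series holds the same intensity rounded to 3 significant digits. Here the 3671 control spots of each array and spots flagged by the scanner software as outliers were removed. Log2 intensities were averaged over the spots of each probe. Probes that at least 2 arrays had well above background were then normalized by quantiles, following the study's methods. The flag by which the authors filtered probes is not defined, and the background rule replaces it. limma (3.58.1, R 4.3.3) tested 35087 probes across all genes, with 2 residual degrees of freedom plus 2.64 moderated ones and Benjamini-Hochberg adjustment. The exact permutation test of 2 against 2 arrays cannot give a two-sided p below 0.333, and the number of arrays limits the precision. Genes were named by matching RefSeq accessions to the table of GRCm38.p6. Since the array's own annotation uses mm9, no coordinates are given.

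The members and lists were chosen with earlier results of these data known. Named genes are all members through every probe, list genes at an unadjusted p under 0.05 without overlap, and otherwise the 2 with the largest difference in each list. Slc25a11, Slc25a12, Gpd2, Gad1 and Got1l1 were named beyond this rule. Some genes of these pathways are not reported here. Of the processing steps, only the limma fit was tested, on values simulated around the normalized ones of these arrays.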

Additional observations from a re-analysis of the deposited data

How the results depend on the processing

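The 11 alternatives were a 75th percentile shift, normexp background correction (offset 50, on median signals), the authors' rounded values, no filter, a strict filter (4 arrays), leaving out each array, the methods' t-test and limma with a trend. All 15 member probes stayed above an adjusted p of 0.05 under each, and 11 kept their direction throughout. The direction of Mdh1 (A_52_P407796) turned under the 75th percentile shift (-0.010). With single arrays left out, the differences spanned -0.011 to 0.13 for that probe (turned without MOTS-c replicate 3), -0.12 to 0.029 for Mdh2 and -0.041 to 0.15 for Got2 (both turned without scrambled replicate 1), and -0.20 to 0.12 for Glud1 (A_55_P2611006, which turned without scrambled replicate 1 and stood at 0.00044 without MOTS-c replicate 2). Member probes at an unadjusted p under 0.05 numbered 2 (all probes, 2755 of 35087), 5 with the normexp correction (3112 of 35087), 5 with no filter (4633 of 56605), 3 with the trend (2945 of 35087), 3 by the methods' t-test (2312 of 35084) and 1 whichever array was left out (1 to 1; all probes 1605 without scrambled replicate 2 to 4600 without MOTS-c replicate 2). Of all probes, 1840 differed by at least 1.5-fold, but 443 with the normexp correction, 5453 with no filter, 1232 with the strict filter and 1884 to 4006 with an array left out. The 3 member probes of the methods' t-test did not include those of Mdh1b and Slc1a5. The methods' t-test called 1 probe of the whole array after adjustment, against 0 otherwise. The cause was not tested, beyond the fewer arrays where 1 is left out, in which case the lone array of a group is assumed to vary like the other group. No paired analysis was possible because the groups share only 1 replicate number in the labels. Signal over background limits Mdh1b and the dimmer probe of Gls2, and among the named list genes also Slc25a13 and Gfpt2.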
